A study of Mus musculus with 6 samples.

Results

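The microphthalmia and TFE (MITF/TFE) family consists of 4 genes, Mitf, Tfec, Tfeb and Tfe3, and their H3K27ac profile in mouse alveolar macrophages (AMs) is described here. The 4 members are listed by name, out of 21755 protein-coding genes of the GENCODE annotation on the autosomes and chromosome X. For each member, H3K27ac peaks were collected within 1 kb of every transcription start site (TSS), inside the gene body and up to 50 kb on either side. The rule of choice did not use any measured value, although earlier results of these data were known when it was made.

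H3K27ac, the acetylation of lysine 27 of histone H3 that marks active promoters and enhancers, was mapped by high-throughput ChIPmentation, in which antibody-bound chromatin is tagged with sequencing adapters on the beads by a transposase. The cells were AMs obtained by lavage of the airways of adult wild-type C57BL/6J mice and sorted by flow cytometry. There were 3 immunoprecipitated libraries, all of untreated wild-type cells: 1 made with an antibody from Active Motif and 2, called replicates 1 and 2, made with an antibody from Cell Signaling, with 3 input samples as controls. The title of the Active Motif library reads H3 and not H3K27ac, and its antibody is the one listed for H3K27ac in the study's methods.

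MITF, TFEB, TFE3 and TFEC are basic helix-loop-helix leucine zipper transcription factors that bind as dimers, with themselves or with each other, to E-box sequences. TFEB and TFE3 are known for switching on lysosomal and autophagy genes through a sequence called the CLEAR element, and nutrient signalling through mTORC1 at the lysosome keeps them in the cytoplasm. MITF is required for melanocytes, mast cells and osteoclasts and uses alternative promoters whose transcripts differ in their first exon, the 5′-most one encoding the A form and the 3′-most one the M form of melanocytes. TFEC is the member with the narrowest expression, found mostly in the macrophage lineage.

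All 4 members carried an H3K27ac peak within 1 kb of a TSS in each of the 3 libraries. Over all protein-coding genes the same held for 40.9% with Active Motif, 47.9% in Cell Signaling replicate 1 and 48.9% in replicate 2. Merged regions that held a peak of both Cell Signaling replicates reached 46.5% of all genes and all 4 members. TSS within 500 bp of each other were counted as 1 promoter, which gave 11 promoters for the 4 genes, and 8 of the 11 had a peak in each library. The corresponding shares of all 28326 promoters were 34.9%, 41.5% and 42.4% in the same order, and 40.2% for the shared regions. Promoters 1 to 3 of Tfeb lay under 1 shared region and the 2 of Tfe3 under another, so the 8 marked promoters were not separate regions. The 3 promoters without a peak all belonged to Mitf. With 4 genes, the counts are a description and no test was made.

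The sequences below are those of the promoters on which the comparison between members turns, followed by the windows around the strongest Cell Signaling replicate 2 summit in Mitf, Tfec and Tfeb. Each is given 5′ to 3′ on the strand of its gene, from GRCm38, the assembly also called mm10, and leaves out bases of annotated exons. Capitals mark matches on either strand to 1 of 7 short motifs: the E-box CACGTG of the CLEAR element, the E-box variant CATGTG, the ETS core GGAAGT, the AP-1 site TGANTCA, the RUNX core TGTGGT, the nuclear receptor half-site AGGTCA and the C/EBP site TTGCNNAA. The first is the upstream sequence of the acetylated 5′ promoter of Mitf (chr6:97806802-97807001, plus strand), the second that of the unmarked M promoter of Mitf (chr6:97991542-97991700, plus strand), the third that of Tfec (chr6:16898465-16898691, minus strand), the fourth that of the first Tfeb promoter (chr17:47736780-47737029, plus strand) and the fifth that of the first Tfe3 promoter (chrX:7762408-7762529, plus strand). The summit windows lie in intron 1 of Mitf (chr6:97820425-97820724, plus strand), at the 5′ end of intron 1 of Tfec (chr6:16897959-16898258, minus strand) and in intron 1 of Tfeb (chr17:47769520-47769798, plus strand).
Mitf promoter 1: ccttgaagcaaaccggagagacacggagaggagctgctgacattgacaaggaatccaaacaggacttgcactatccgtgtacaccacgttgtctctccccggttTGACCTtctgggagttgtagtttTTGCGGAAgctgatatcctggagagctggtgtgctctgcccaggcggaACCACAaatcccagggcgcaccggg
Mitf promoter 4: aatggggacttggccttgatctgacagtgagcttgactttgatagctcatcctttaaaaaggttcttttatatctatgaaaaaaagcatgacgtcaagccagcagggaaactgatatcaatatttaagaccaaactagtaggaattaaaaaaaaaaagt
Tfec promoter 1: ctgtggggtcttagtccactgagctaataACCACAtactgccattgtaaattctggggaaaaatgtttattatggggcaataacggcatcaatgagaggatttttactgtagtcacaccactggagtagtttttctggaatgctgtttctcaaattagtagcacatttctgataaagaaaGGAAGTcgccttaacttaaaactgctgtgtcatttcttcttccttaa
Tfeb promoter 1: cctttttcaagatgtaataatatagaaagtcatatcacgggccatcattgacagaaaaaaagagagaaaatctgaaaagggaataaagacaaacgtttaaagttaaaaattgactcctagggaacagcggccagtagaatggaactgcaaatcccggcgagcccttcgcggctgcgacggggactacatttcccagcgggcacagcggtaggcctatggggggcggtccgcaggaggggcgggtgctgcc
Tfe3 promoter 1: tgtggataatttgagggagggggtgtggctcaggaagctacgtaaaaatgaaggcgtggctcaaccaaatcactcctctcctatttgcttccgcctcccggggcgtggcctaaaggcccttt
Mitf summit: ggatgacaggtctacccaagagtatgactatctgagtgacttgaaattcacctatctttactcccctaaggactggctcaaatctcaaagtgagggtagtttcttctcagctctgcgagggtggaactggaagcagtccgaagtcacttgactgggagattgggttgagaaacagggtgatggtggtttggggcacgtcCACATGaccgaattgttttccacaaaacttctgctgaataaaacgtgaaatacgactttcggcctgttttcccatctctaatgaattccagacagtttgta
Tfec summit: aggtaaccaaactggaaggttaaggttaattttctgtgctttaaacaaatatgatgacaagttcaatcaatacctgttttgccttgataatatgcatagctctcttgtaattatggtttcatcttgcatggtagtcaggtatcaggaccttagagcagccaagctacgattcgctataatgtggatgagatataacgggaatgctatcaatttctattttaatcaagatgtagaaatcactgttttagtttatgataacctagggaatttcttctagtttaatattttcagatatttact
Tfeb summit: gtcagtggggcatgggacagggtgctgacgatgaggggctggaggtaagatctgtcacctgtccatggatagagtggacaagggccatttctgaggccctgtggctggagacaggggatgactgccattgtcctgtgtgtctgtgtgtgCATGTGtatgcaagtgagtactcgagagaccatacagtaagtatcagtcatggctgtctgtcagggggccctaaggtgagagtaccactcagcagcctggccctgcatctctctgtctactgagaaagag

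The printed Mitf promoter 1 holds 1 match each to the nuclear receptor half-site, the C/EBP site and the RUNX core. The Tfec promoter holds 1 match to the RUNX core and 1 to the ETS core, and the printed M promoter of Mitf, Tfeb promoter 1 and Tfe3 promoter 1 hold none. Over the full 250 bp upstream of the TSS, Tfe3 promoter 1 has 1 ETS match, which falls outside the printed stretch. The ETS core occurred in 19.4% of all promoter windows of this length, the RUNX core in 13.1%, the nuclear receptor half-site in 13.0% and the C/EBP site in 9.49%. The E-box CACGTG, found in 6.13% of all promoters, was in none of the 11 member promoters, and the variant CATGTG, found in 11.0%, was in none either. The printed summit windows of Mitf and Tfeb each hold 1 CATGTG, and that of Tfec holds no match to the 7 motifs. Over its full 300 bp, the Tfeb window also has 1 nuclear receptor half-site, which the printed stretch does not hold.

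Sequence composition set the Tfec promoter apart from the acetylated 5′ promoter of Mitf. The 1 kb around the Tfec TSS had 10 CpG dinucleotides and 35.9% G and C, with an observed over expected CpG ratio of 0.312. For Mitf promoter 1 the values were 52 CpG, 56.1% and 0.666. The other Mitf promoters, with 13, 19 and 18 CpG and ratios of 0.237, 0.358 and 0.416, were also under 0.6, though each held more CpG than that of Tfec, and Tfeb ranged from 71 CpG and a ratio of 0.881 at promoter 1 to 25 CpG and 0.306 at promoter 4. Among the 16772 promoters with a ratio under 0.6, 18.2% were reached by a shared Cell Signaling region, against 72.1% of the 11554 at or above it. Of the family, Tfec, Tfeb promoters 3 and 4 and Tfe3 promoter 2 were among the marked CpG-poor promoters. The ratios of Tfeb promoter 3 and Tfe3 promoter 2 were 0.508 and 0.372. These 2 promoters shared their region with promoters of the same gene at or above 0.6, and the peaks at Tfeb promoter 4 ended before its TSS. Mitf promoters 2 to 4 were among the unmarked ones. The CpG comparison was added after the data had been seen.

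**Figure D1:**
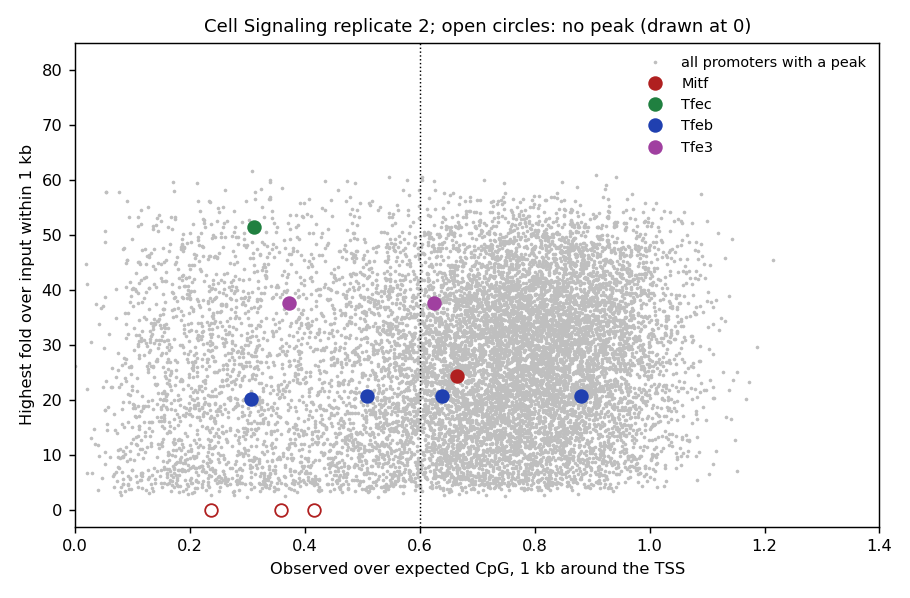
Highest fold over input within 1 kb of each promoter in Cell Signaling replicate 2 (vertical axis, ratio) against the observed over expected CpG ratio of the 1 kb around the TSS (horizontal axis); grey points are all promoters with a peak, coloured points those of the 4 members, open circles promoters without a peak, drawn at 0, and the dotted line marks 0.6. Tfec, at a ratio of 0.312, lies near the top with a fold of 51.5, while the 3 promoters of Mitf that are also under 0.6 have no peak.

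The strength of a promoter was taken as the highest fold enrichment over input, a ratio computed by the authors' peak caller, of any peak within 1 kb. Folds of different libraries are not on a common scale, so members were ordered within each library. Tfec (ENSMUSG00000029553.10) had the highest value of the family in all 3 libraries, 34.5 in the Active Motif library, 56.9 in Cell Signaling replicate 1 and 51.5 in replicate 2. These were at the 98.4, 95.9 and 97.2 percentiles of all promoters with a peak. Tfe3 (ENSMUSG00000000134.17) came second in each, with 15.7, 35.0 and 37.7, at the 70.8, 79.0 and 76.6 percentiles.

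Mitf (ENSMUSG00000035158.15) had 10.1, 16.5 and 24.3 and Tfeb (ENSMUSG00000023990.18) 12.4, 16.5 and 20.8. Tfeb was above Mitf with Active Motif, level with it in replicate 1 and below it in replicate 2, so the order of these 2 genes was not fixed by the data. The spread between the 2 Cell Signaling replicates, which includes any difference in scale between their folds, is given by means of 54.2 ± 3.83 (SD, n = 2) for Tfec, 36.3 ± 1.93 (SD, n = 2) for Tfe3, 20.4 ± 5.51 (SD, n = 2) for Mitf and 18.7 ± 3.01 (SD, n = 2) for Tfeb. The replicate values of Tfec, Tfe3 and the Mitf and Tfeb pair did not overlap, and those of Mitf and Tfeb did. In a library made from many cells, a share of cells with the mark and its level per cell cannot be told apart.

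**Figure D2:**
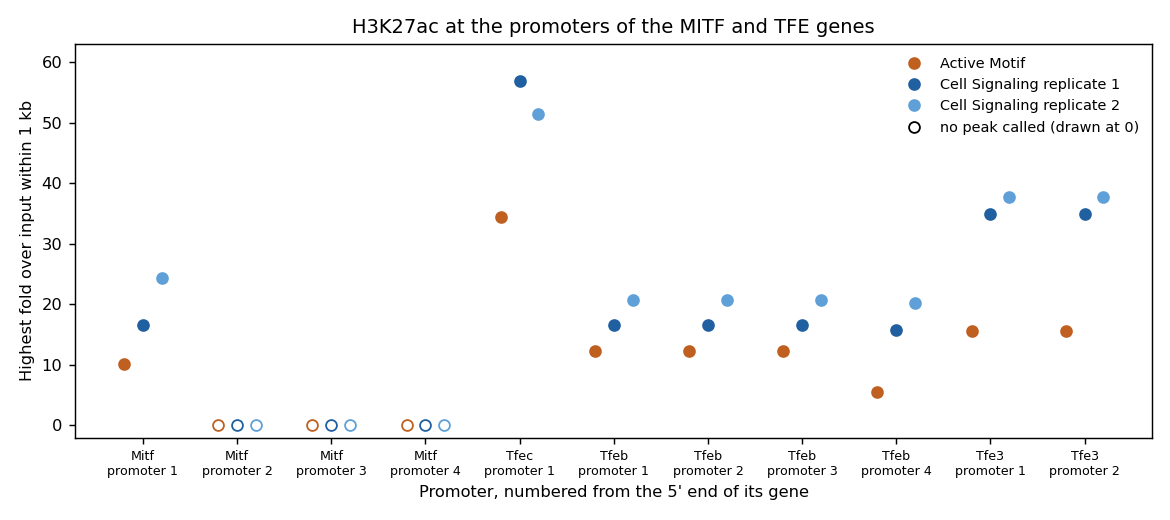
Highest fold over input within 1 kb (vertical axis, ratio) at each of the 11 promoters of the 4 genes, numbered from the 5′ end of the gene; each point is 1 library and open circles, drawn at 0, are promoters where no peak was called. Mitf promoters 2 to 4 have no peak in any library, and Tfec is highest in all 3.

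Mitf lies at 6:97807052-98021349 on the plus strand, spans 214 kb and has 4 promoters. Promoter 1, at 97807052, starts the longest transcripts, with a coding sequence of up to 526 codons, and was the acetylated one. Its strongest peak covered 720 bp in the Active Motif library, 2376 bp in replicate 1 and 3419 bp in replicate 2. The Cell Signaling summits lay 199 and 192 bp downstream of the TSS, in exon 1, whereas the strongest Active Motif summit lay upstream, at -573 bp. The Active Motif signal at this promoter was split into 3 peaks, with folds of 6.40, 10.1 and 7.67, on either side of the TSS.

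No peak was called at the other 3 Mitf promoters in any library. From promoter 2, at 97929799, the nearest peak was 73.3 kb away in the Active Motif library, 62.4 kb in replicate 1 and 62.0 kb in replicate 2. For promoter 3, at 97940918, the distances were 84.4, 73.5 and 73.1 kb, and for promoter 4, the M promoter at 97991792, 99.9, 99.7 and 98.7 kb. A missing peak means that none passed the q-value threshold of 0.05 in that library, and read depth was not used here. Of the 170 protein-coding genes with 4 promoters, 33 (19.4%) had exactly 1 reached by a shared region, as Mitf did, 18 (10.6%) had all 4, as Tfeb did, and 75 had none. In those genes the first promoter was marked in 39.4% and the fourth in 25.3%. The Tfeb count of 4 includes promoters 1 to 3 under 1 shared region and a promoter 4 whose peaks ended before its TSS.

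The strongest acetylation of Mitf was not at its promoter but inside intron 1. A region of 8.58 kb at 6:97813966-97822540, centred 11.2 kb downstream of the TSS, had folds of 18.3, 49.2 and 46.0 in the Active Motif library and Cell Signaling replicates 1 and 2, each above the promoter's. Its summits in the 3 libraries, from which the printed Mitf window is taken, fell within 180 bp, and those of the Cell Signaling replicates within 25 bp. By width this region ranked 504th of the 29285 shared regions.

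A second intron 1 region, 6:97825699-97831376, covered 5.68 kb at 21.5 kb from the TSS, with folds of 17.5, 38.8 and 42.5. Further into intron 1, at 49.5 kb, 6:97855247-97857841 had lower folds of 6.54, 14.2 and 15.5. The last region of the gene, 6:97866404-97867819 at 60.1 kb, had folds of 4.997 and 8.91 in the Cell Signaling replicates and no Active Motif peak, and a region of 178 bp at 6:97825082-97825259 was likewise without one. All 6 shared regions of the Mitf window were thus in the promoter or intron 1, and all were nearer to a Mitf TSS than to any other protein-coding TSS.

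Replicate 2 alone had further small peaks between these regions and upstream, with folds of at most 5.79, and downstream of the last region the Mitf locus had no peak. The last peak ended 49.4 kb into the gene in the Active Motif library, 60.3 kb in replicate 1 and 60.8 kb in replicate 2. This left 76.9%, 71.8% and 71.6% of the gene without a peak, including promoters 2 to 4, and no peak followed in the 50 kb downstream flank in any library. No other protein-coding gene lies in the Mitf window.

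**Figure D3:**
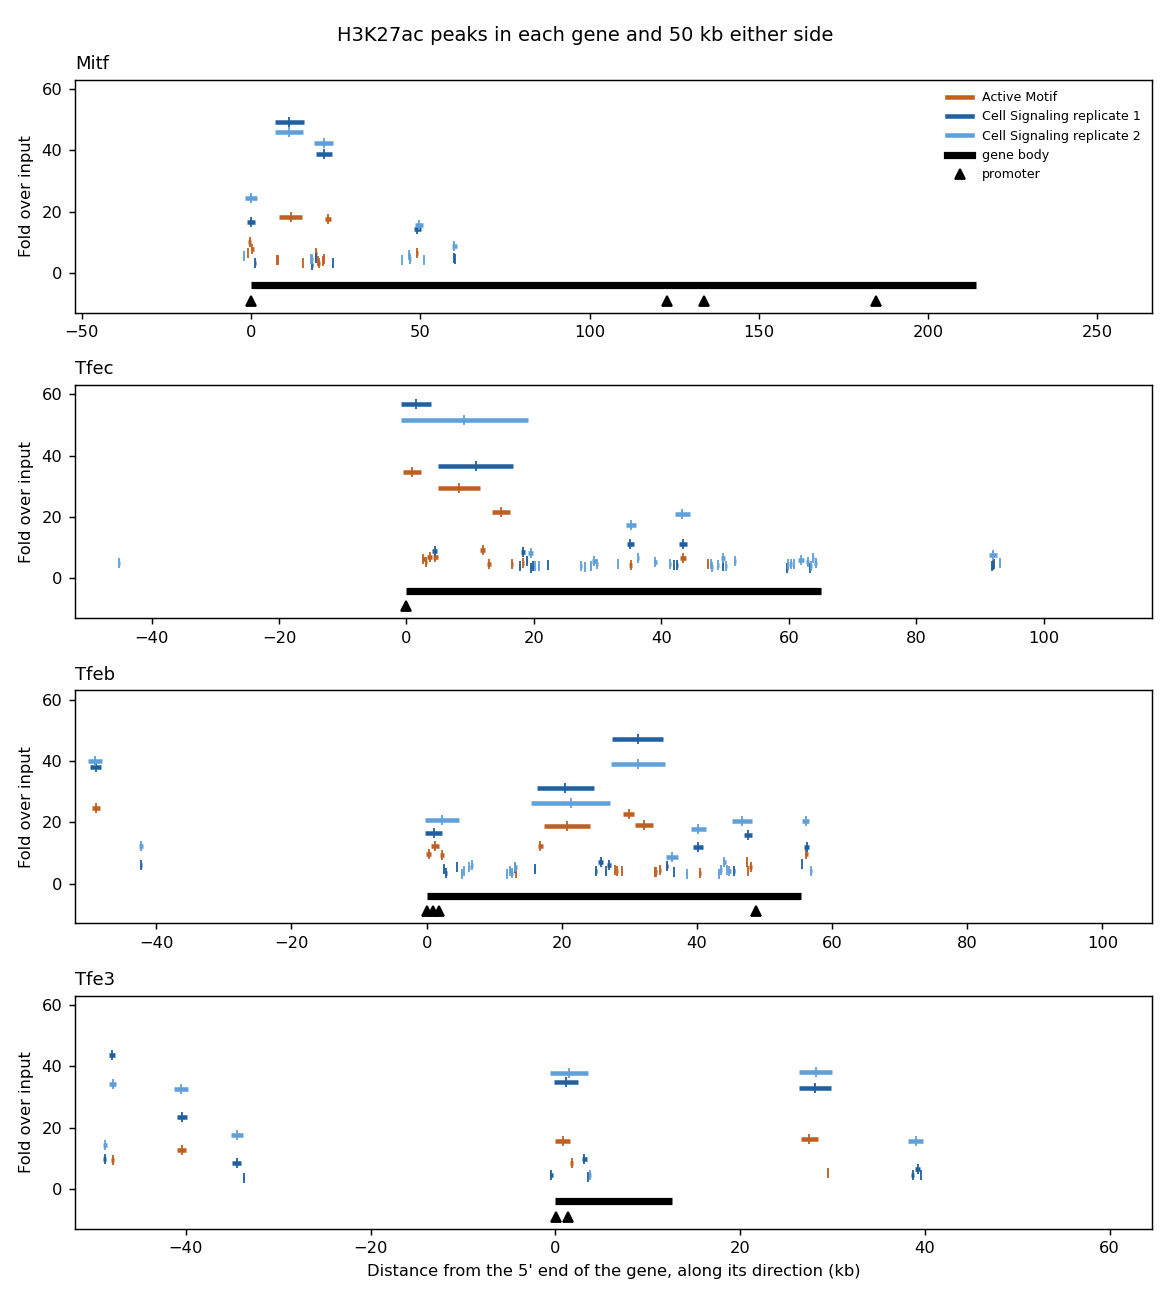
Peaks of the 3 libraries along each member and 50 kb on either side; the horizontal axis is the distance from the 5′ end of the gene in kb, in the direction of transcription, and the vertical axis the fold over input, with each bar spanning 1 peak, black bars the gene bodies and triangles the promoters. Acetylation of Mitf stops within 60.8 kb of its 5′ end, Tfec and Tfeb each have a stretch of about 19.8 or 19.9 kb, and the shared regions around Tfe3 lie at its promoter or nearest to other genes.

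Tfec lies at 6:16833373-16898441 on the minus strand, spans 65.1 kb and has 1 promoter in the basic annotation, for a coding sequence of 317 codons. A single shared region of 19.8 kb, 6:16879434-16899281, took in the promoter and most of intron 1. By width it ranked 41st of 29285 shared regions, only 49 of which reached 19 kb. In Cell Signaling replicate 2 it was 1 unbroken peak of 19822 bp, 38th in width of 49139 peaks, while replicate 1 had 6 peaks there and the Active Motif library 11. The strongest summit was in the same place in all 3 libraries, 330, 360 and 332 bp downstream of the TSS, a span of 30 bp.

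Within that stretch the libraries with several peaks showed more than 1 centre. In the Active Motif library the promoter peak of 2827 bp, with a fold of 34.5, was followed by a peak of 6459 bp with a fold of 29.4 and 1 of 2898 bp with a fold of 21.7. In Cell Signaling replicate 1 a peak of 11818 bp, with a fold of 36.5 and ranked 87th in width, lay downstream of the promoter peak of 4701 bp and 56.9. Intron 1 of Tfec was thus strongly marked beyond the promoter in both antibodies.

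Tfec had 5 further shared regions in its body and 1 in its downstream flank, all weaker. The strongest, 6:16853960-16856316 in intron 2, had folds of 6.54, 11.3 and 20.8, and 6:16862362-16864046, also in intron 2, had 4.17, 11.1 and 17.5. At the other body regions the folds were at most 8.36, and no Active Motif peak was called there. The flank region, 6:16805770-16806980, had folds of 4.27, 4.61 and 7.63. Replicate 2 called 29 peaks in the gene body whereas replicate 1 called 16 and Active Motif 14, and no other protein-coding gene lies in the window.

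The Tfec promoter stood high also among CpG-poor promoters. Its fold was at the 98.2 percentile of the 2349 CpG-poor promoters marked with Active Motif, at 95.9 of 3284 in replicate 1 and at 96.7 of 3356 in replicate 2. The median folds of these promoters were 10.2, 15.1 and 22.9.

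Tfeb lies at 17:47737030-47792419 on the plus strand, spans 55.4 kb and has 4 promoters, with coding sequences of 267 to 534 codons. All 4 had a peak in each library. Promoters 1, 2 and 3, at 47737030, 47737928 and 47738903, lay under 1 shared region of 5.03 kb, 17:47736812-47741840, and so had the same folds of 12.4, 16.5 and 20.8. They cannot be separated by these peaks. The strongest summit was closest to promoter 2 in the Active Motif library, 229 bp downstream of it, and closest to promoter 3 in the Cell Signaling replicates, at 177 and -268 bp from it.

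Promoter 4 of Tfeb, at 47785720, had folds of 5.52, 15.8 and 20.3 from a region that ended before the TSS. The nearest peak edge was 0.566 kb upstream of it in the Active Motif library, 0.5 kb in replicate 1 and 0.481 kb in replicate 2, and the summits lay at -915, -1195 and -950 bp. Its Active Motif value was at the 10.4 percentile of marked promoters. Whether Tfeb promoter 4 counts as marked therefore depended on the window, and with 500 bp in place of 1 kb it had no Active Motif peak. When the summit had to lie within 1 kb, replicate 1 marked 1 Tfeb promoter in place of 4.

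As in Mitf, the highest folds of Tfeb were in intron 1, away from the basic promoters. A region of 19.9 kb, 17:47752462-47772321, ranked 40th in width of 29285 shared regions, directly ahead of that of Tfec, and had folds of 22.5, 47.3 and 39.1. It comprised 10 Active Motif peaks, 7 of replicate 1 and 2 of replicate 2. The strongest summits of the Active Motif library and of replicate 1 were at 47767044 and 47767217, and that of replicate 2, printed above, was 2432 bp from the latter. The region holds the starts of 5 Tfeb transcripts outside the basic annotation. Within 1 kb, the starts at 47754326 and 47759175 both had folds of 18.6, 31.1 and 26.1, and that at 47769238, shared by 2 transcripts, had 19.1, 47.3 and 39.1. The start at 47763170 had no Active Motif peak and folds of 7.18 and 26.1 in the Cell Signaling replicates.

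Tfeb had 3 more intron 1 regions outside its promoters, with folds of at most 3.60, 11.9 and 17.8, and a region just past its 3′ end, 17:47792540-47793655, with folds of 9.80, 11.9 and 20.4. The 2 upstream regions of the window lay at other genes. One was at Tomm6, which encodes a subunit of the mitochondrial import complex, with folds of 24.6, 38.1 and 39.9, and the other at Frs3, an adaptor of fibroblast growth factor receptors, and Gm21981, with 6.15 and 12.3 in the Cell Signaling replicates and no Active Motif peak. Pgc and Mdfi, also in the window, had no promoter peak, and Prickle4 had none at its basic TSS, although its annotated 5′ end, at 47694736, lies inside the region at Frs3 and Gm21981. The intron 1 region of Tfeb was nearest to Tfeb itself, as were 7 of the 9 shared regions.

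Tfe3 lies at X:7762560-7775202 on the plus strand and spans 12.6 kb, the shortest of the 4, with coding sequences of 432 to 572 codons. Both of its promoters, at 7762658 and 7763959, were covered by 1 shared region of 4.16 kb, X:7761966-7766120, with folds of 15.7, 35.0 and 37.7. The Cell Signaling replicates differed in the summit, 14 bp downstream of the first TSS in replicate 1 and 572 bp in replicate 2, and the Active Motif summit was at 689 bp. Tfe3 had no other shared region in its body, and outside this region the body held 1 peak, of replicate 2, with a fold of 4.38.

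The 6 flanking regions of Tfe3 were all nearest to another gene. At the promoter of Wdr45, an autophagy gene, which lies within 1 kb of that of Gm45208, the folds were 12.8, 23.4 and 32.6. A region of 757 bp upstream of it, X:7714226-7714982, which holds the annotated 5′ end of Wdr45 at 7714333, had 9.38, 43.8 and 34.2, in replicate 1 the highest fold of the window and above that of the Tfe3 promoter, and a neighbouring one, X:7713544-7713966, had 9.61 and 14.4 in the Cell Signaling replicates. Gripap1 had 16.2, 33.1 and 38.3 at its promoter and 6.53 and 15.5 in the Cell Signaling replicates at X:7800787-7802341, and Praf2 had 8.46 and 17.7 in the Cell Signaling replicates and no Active Motif peak. Ccdc120 and Kcnd1 had no promoter peak. Counted by nearest gene, the Tfe3 locus thus had 1 shared region, against 6 for Mitf, 7 for Tfec and 7 for Tfeb.

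Over the body and 50 kb flanks, Mitf had 14 Active Motif peaks, 10 of replicate 1 and 12 of replicate 2, Tfec had 15, 18 and 32, Tfeb 20, 21 and 24, and Tfe3 6, 13 and 8. The medians over all protein-coding genes were 2, 4 and 4. A long gene has a longer window, so the share of the gene body under peaks was also compared. For Tfeb it was 29.7%, 43.4% and 62.8% in the Active Motif library and replicates 1 and 2, for Tfec 26.9%, 32.0% and 47.1%, for Tfe3 14.5%, 24.2% and 29.2%, and for Mitf 5.51%, 7.84% and 9.72%. Tfeb was first and Mitf last in every library. Tfeb and Tfec were between the 95.3 and 97.8 percentiles of all genes, Tfe3 between 92.6 and 93.2, and Mitf between 78.5 and 82.6. These percentiles include genes without a body peak, which numbered 12480, 10285 and 10134 of 21755 in the same order of libraries. Median covered shares over all genes were 0%, 0.305% and 0.741%.

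**Figure D4:**
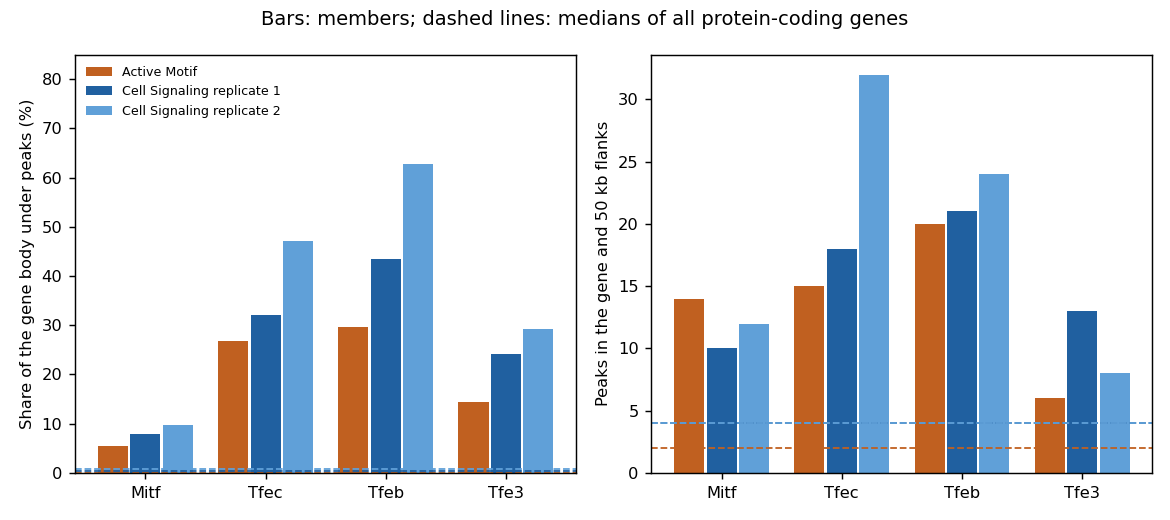
Share of each gene body under peaks in percent (left) and number of peaks in the gene and its 50 kb flanks (right), with a bar for each library; dashed lines are the medians of all protein-coding genes, which for the peak number coincide at 4 for both Cell Signaling replicates. Tfeb has the largest and Mitf the smallest covered share in all 3 libraries.

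The 3 libraries differed in what they could show. They held 36364 peaks over 26.1 Mb with Active Motif, 56175 over 45.8 Mb in replicate 1 and 49139 over 59.8 Mb in replicate 2, with median widths of 341, 267 and 629 bp. The covered share of every member was larger in that same order, beside the genome-wide covered length. The part of antibody, sonication, sequencing and depth in this order was not tested. The study's methods give different sonication settings for H3K27ac samples, without saying which antibody they belong to. Of the 29 shared regions in the 4 windows, 19 also had an Active Motif peak, and in 16 the strongest summits of the Cell Signaling replicates lay within 100 bp of each other, with a median distance of 83 bp.

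The summit windows of all peaks in the 4 loci were searched for the same motifs over 300 bp. The CACGTG E-box was in 5 of 55 Active Motif windows (9.09%), 2 of 62 in replicate 1 (3.23%) and 3 of 76 in replicate 2 (3.95%), against 4.75%, 4.80% and 4.34% of all peaks. The variant CATGTG was in 14 (25.5%), 10 (16.1%) and 17 (22.4%), against 17.4%, 19.3% and 18.96%. For the RUNX core the counts were 5, 15 and 16, or 9.09%, 24.2% and 21.1% against 19.6%, 22.0% and 21.6%. The ETS core was in 10 (18.2%), 11 (17.7%) and 16 (21.1%), against 22.7%, 26.4% and 24.9%, and was the one motif of the 7 on the same side of its background, below it, in all 3 libraries. The windows of the libraries overlap, so they are not independent, and no test was made.

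Genes that act with the family were examined for a promoter peak, read against the background shares given above. That background was not matched for CpG content. Shared regions reached 72.1% of promoters with a CpG ratio of at least 0.6 and 18.2% of the others. How far this difference enters the list shares was not tested. Of 33 genes of the nutrient signalling that sets where TFEB, TFE3 and MITF reside in the cell, 29 had a peak with Active Motif and 30 in each Cell Signaling replicate. Among them were Mtor, the kinase of mTORC1, with folds of 5.97, 15.8 and 18.3, its scaffold Rptor, with 6.40, 16.9 and 21.4, and its subunit Mlst8, with 19.97, 47.3 and 44.3. The exceptions in all libraries were the GTPase genes Rragb and Rragd and the arginine sensor Castor1, and Tsc2 lacked an Active Motif peak.

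Genes listed by name as lysosomal and autophagy targets of the CLEAR element were marked at a like share. Whether their promoters hold the element was not tested. Of the 32 lysosomal genes in the annotation, 29, 30 and 31 had a promoter peak, among them the cathepsin genes Ctsb, with 23.2, 28.8 and 46.5, and Ctsd, with 12.0, 52.7 and 20.1, and the protective protein gene Ctsa, with 20.02, 26.1 and 35.7. Sgsh was unmarked, Ctsf was marked in replicate 2, at 3.01, and Cd63 lacked an Active Motif peak. Of 18 genes listed as autophagy targets, 15, 16 and 15 were marked. The cargo receptor gene Sqstm1 had 39.5, 61.1 and 57.7, Map1lc3b 17.5, 27.3 and 21.1, and Gabarap 26.1, 52.3 and 45.2. Atg9b and Rragd, the latter also in the nutrient signalling list, had no peak, and Ppargc1a had a peak of 4.61 in replicate 1 alone.

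Target genes of the family in macrophages and osteoclasts were marked in 11, 11 and 12 of 14. Acp5, the tartrate-resistant acid phosphatase, had 6.65, 14.6 and 20.9, Ctsk, the collagen-degrading cathepsin, 20.6, 58.4 and 48.2, and Oscar, an osteoclast receptor, a peak in replicate 2 with 29.5, while Bcl2 and Met had none. By contrast, of 12 melanocyte targets of MITF, 1, 2 and 2 were marked, namely Pmel, at 8.95, 17.7 and 28.5, and Mlph, at 5.77 and 3.80 in the Cell Signaling replicates. Tyr, Tyrp1 and Dct, the pigment enzymes, had no promoter peak in any library. None of 9 mast cell genes, Kit, Cpa3 and Mcpt4 among them, had a peak at a basic TSS, and 1 had a shared region when all annotated transcripts were used. Peaks near a TSS can belong to a neighbour. Among genes reached by a shared region, another gene's TSS lay within 1 kb for 4 of the 30 nutrient signalling genes. The same held for 9 of the 30 lysosomal, 1 of the 15 autophagy and 2 of the 12 macrophage and osteoclast target genes. It held for neither of the melanocyte targets. Just beyond 1 kb, the TSS of Cdk2 lay 1.23 kb from that of Pmel, and the TSS of Ndufa3 1.22 kb from that of Oscar. Whether the peaks at Pmel and Oscar belong to these neighbours was not tested.

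Other leucine zipper factors that bind E-boxes were marked in 13, 15 and 15 of 18. Myc had 11.5, 26.5 and 33.9, while Mycn and Mycl, its closest relatives, and Mlxipl had no peak. The labelled cell type was checked on its markers, and all 10 AM genes, Siglecf, Itgax and Marco among them, had a promoter peak in each library. Of 6 alveolar and airway epithelial genes, none had an Active Motif peak, Scgb1a1 and Epcam were marked in replicate 1, at 6.53 and 5.38, and Epcam in replicate 2, at 7.07. Of 9 osteoclast markers, 4, 5 and 6 were marked, and Calcr, the calcitonin receptor of mature osteoclasts, and the cell fusion genes Dcstamp and Ocstamp were not. Oscar, whose peak can also belong to Ndufa3, was marked in replicate 2 alone.

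**Figure D5:**
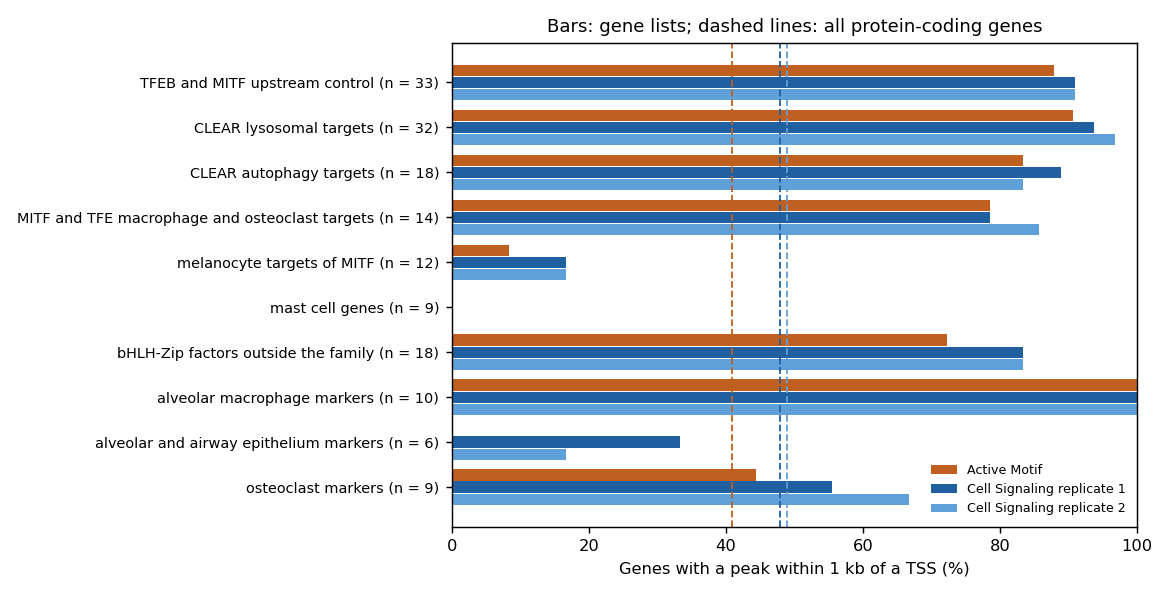
Percentage of the genes of each list that carried a promoter peak, within 1 kb of a TSS (horizontal axis), with a bar for each library and, in brackets, the number of genes; dashed lines are the shares of all protein-coding genes, 40.9%, 47.9% and 48.9%. Lists of lysosomal, autophagy and nutrient signalling genes are above the lines, and those of melanocyte, mast cell and epithelial genes below them. The lines are not matched to the lists for CpG content.

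The protein-coding genes whose H3K27ac values were most like those of each member were found by the Euclidean distance over 6 values, the promoter fold and the number of peaks in the window in each of the 3 libraries, on a log2 scale in units of SD. For Mitf they were Naa16, Enc1 and Stat2, at distances of 0.212, 0.228 and 0.240, and for Tfec they were Mapk6, Atxn7l1 and Tbc1d9, at 0.274, 0.286 and 0.299. The nearest to Tfeb were Zfp652, Mrtfa and Dhx9, at 0.170, 0.242 and 0.295, and to Tfe3 Arhgap17, Nudt18 and Nsun3, at 0.188, 0.189 and 0.208. No member was among the 3 nearest genes of another. Mapk6, for example, had promoter folds of 39.6, 52.5 and 53.5 and 12, 19 and 28 peaks.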

How the data were processed

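HT-ChIPmentation for H3K27ac was done on AMs of wild-type mice (1 Active Motif library, 2 Cell Signaling libraries, 3 inputs). Per the study's methods, the authors trimmed reads with Cutadapt, aligned them to mm10 with Bowtie2, removed duplicates and called peaks with MACS3 against input at a q-value of 0.05. The submitters' processing notes also name bcl2fastq 2.20.0.422. The deposited lists, 1 per library, hold per peak a fold enrichment (a ratio), a −log10 p-value, a −log10 q-value, a score and the summit. They hold no read counts, so no test was made, and nothing shows that the Cell Signaling libraries came from separate mice.

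Peaks were joined to the GENCODE vM21 basic annotation in Python 3.11.15 with pandas 2.3.3 and pysam 0.24.0, coordinates counted from 1. Overlap needed 1 bp. Shared regions were merged Cell Signaling peaks holding a peak of each replicate. Percentiles are shares of values at or below the one given. Interval functions were tested on simulated data. The alternatives were another promoter window (500 bp, 2 kb), flank, TSS set and joining distance, a q-value of 1e-05, the summit in the window, the 36364 strongest peaks of each library, 50% reciprocal overlap and single replicates.

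The members and gene lists were chosen with earlier results of these data known. Named were the members, marked neighbouring genes, the first 3 genes of a list, its exceptions and genes that differed between libraries (where 5 or fewer), and the 3 genes most like each member. The other genes were named after their values were seen.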

Additional observations from a re-analysis of the deposited data

How the results depend on the processing

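All 4 members kept a promoter peak in the 3 libraries under all 7 alternatives tried for it, and Mitf kept exactly 1 marked promoter under all 8. The number of marked member promoters, 8 in each library, fell to 4 in Cell Signaling replicate 1 when the summit had to lie in the window, and was 15 in replicate 1 and 16 in replicate 2 with all annotated transcripts, which adds promoters. Peaks in the 4 windows, 55 with Active Motif and 62 and 76 in replicates 1 and 2, were 33, 36 and 40 at a q-value of 1e-05, 37 and 43 in the Cell Signaling replicates with an equal number of peaks per library, and 100 in replicate 1 with flanks of 100 kb.

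Shared regions per locus depended on the rule. Single replicates gave 10 to 12 peaks for Mitf, 18 to 32 for Tfec, 21 to 24 for Tfeb and 8 to 13 for Tfe3, since unmerged peaks are counted. For Tfec there were 3 regions in place of 7 at a q-value of 1e-05, and 3 pairs of peaks met 50% reciprocal overlap, as did 5 for Tfeb. The Tfe3 count of 7 was 2 with flanks of 20 kb, 14 with 100 kb and 1 by nearest gene. The count of marked melanocyte targets was 1 in place of 2 under 4 alternatives, that of mast cell genes 1 in place of 0 with all annotated transcripts, and that of osteoclast markers 3 in place of 6 with the summit in the window. Mean Cell Signaling promoter folds were unchanged with a 500 bp window or the summit in the window, because the same peaks were kept. No paired analysis was possible because no result comes from a test. With no read counts, weak acetylation under the authors' threshold cannot be told from none.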

Other observations

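Transcripts outside the basic annotation add starts for 3 of the members. Tfec has 2 further starts in the 3′ part of the gene, at 16845996, with a peak of fold 5.79 in Cell Signaling replicate 2, and at 16835263, with folds of 3.44 and 6.52 in replicates 1 and 2 and no Active Motif peak. Tfe3 has a start at 7769430 and Tfeb has 2 promoters in the last part of the gene, at 47787568 and 47789441, without a peak in any library. Mitf has no promoter outside the basic ones.

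Among the upstream regulators, the strongest promoter in Cell Signaling replicate 1 was that of Ppp2ca, a phosphatase subunit, with folds of 34.0, 79.2 and 55.7, chosen after its values were seen. Flcn, which encodes folliculin, and its partners Fnip1 and Fnip2, chosen likewise, had 31.3, 62.7 and 45.7, then 29.8, 45.0 and 42.1, and 11.5, 16.5 and 24.1. Of the other E-box binding factors, Mxd3 and Mxd4 had Cell Signaling peaks, with folds of 6.92 and 6.64 and of 9.99 and 14.8, and no Active Motif peak.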
